A study of Arabidopsis thaliana with 2 samples.

Results

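Cytosolic ribosomal protein genes were examined in sap drawn from 2 cell types of the leaf epidermis of Arabidopsis thaliana: trichomes, which are hairs made of a single cell, and pavement cells, which cover most of the leaf surface. A list of 60 nuclear genes for proteins of the cytosolic ribosome, given as locus identifiers, set the members. Of these, 39 were measured on a probe set (the group of array probes that reports 1 transcript) naming exactly 1 gene, out of 13356 genes measured in all. A further 5 lay only on 3 probe sets that name several genes, and 16 were on no probe set of the annotation used and are not analysed here. Each measured gene had a single probe set. The 39 genes represent 20 of the 28 protein families on the list.

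The trichome group was 1 array of trichome sap and the pavement group 1 array of pavement cell sap. Both came from leaves of 5-week-old plants of the accession Columbia-0 grown in the same light cycle, with no treatment named. Sap was drawn with microcapillaries and its RNA was amplified in 1 round before labelling; the labels read here do not say how many cells or plants were pooled. Each cell type is represented by 1 array, so no difference below has a replicate check or a p-value, and precision is limited by that number of arrays. In such samples, fewer cells contributing sap and less RNA per cell cannot be told apart.

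The cytosolic ribosome makes the proteins encoded by nuclear genes. It joins a small subunit, which holds the mRNA and reads its codons, to a large subunit, which forms the peptide bond. In Arabidopsis nearly every ribosomal protein is encoded by a small family of near-identical genes, while a ribosome usually takes up a single copy of each protein. The P-proteins are the exception: P1 and P2 bind to P0 in several copies and form a stalk that recruits elongation factors. Assignment of the loci to families is general knowledge of Arabidopsis gene nomenclature and is given by the annotation tables used here for only a few of them.

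Signals are log2 values as the authors deposited them. A reading at or under 2.58, the highest signal among 27 probe sets for Bacillus subtilis control transcripts, was treated as background and is called the background ceiling. Differences are log2 signal in trichome minus log2 signal in pavement, and a gene was counted as 2-fold different when that difference was 1 or more in size and its higher signal reached a floor of 2.05, the median over both arrays. Where the dimmer array was at background, the fold was computed against the ceiling and is a lower limit, written "at least". Probe sets differ in how well they bind, so a higher signal of one gene than of another does not show more transcript. Places, percentiles and bands of level below order genes by signal and not by amount of transcript. No replicate gauged the error of a difference. Where a gene had several probe sets, their differences scattered with a pooled SD of 0.95 in the 36 such genes with signal above background. In all 146 such genes the SD was 0.52. It describes probe sets read on the same 2 arrays and leaves out variation from sap sampling, amplification and arrays. None of the 39 ribosomal protein genes was among the 146.

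Facts of the whole arrays bear on every value below. The 18 probe sets for the hybridisation controls, transcripts that are added before hybridisation in amounts not given in the sources used here, had a median difference of -3.15 between the arrays, in the range -3.54 to -1.94. The difference between the arrays also grew with signal level over all genes. Of the markers listed for cell types, the 4 measured mesophyll genes of 8 listed were all higher in pavement, with summed log2 signals of 15.3 in trichome and 36.4 in pavement and all 4 above the ceiling on both arrays. Of 11 trichome markers, 4 were measured, with summed signals of 8.67 in trichome and 12.5 in pavement and a median difference of 0.07; the sum is set by TBR, with a difference of -4.76. The cell cycle inhibitor SIM was the single one above the ceiling in trichome and the wall gene TBR the single one above it in pavement. The 3 measured guard cell lineage markers of 6 were above the ceiling in trichome (sum 8.44) and at background in pavement (sum 6.05). The measured marker of epidermis (1 of 7) and that of vasculature (1 of 3) were at background on both arrays, at 2.08 and 2.08 in trichome and 1.68 and 2.14 in pavement. The part of any of these in the ribosomal protein values was not tested.

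A larger share of ribosomal protein genes than of all genes gave a signal in both saps. Signals above the background ceiling were given by 14 of the 39 measured genes (35.9%) in trichome, where 12.2% of all genes were above it, and by 24 (61.5%) in pavement, where 15.9% of all genes were. All 14 genes seen in trichome were also seen in pavement, 10 were seen in pavement alone, and 15 were at background on both arrays. By family, 12 of the 20 families measured had a gene above background in trichome and 17 in pavement. A family counts when any of its measured genes is above background, so larger families have more chances. No such share was computed for other gene families, and the family counts cannot be set against the shares of single genes. Signals of the 39 genes spanned 1.59 to 4.99 in trichome, with a median of 2.40, and 1.81 to 9.10 in pavement, with a median of 3.06.

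Of the 34 ribosomal protein genes that reached the floor of 2.05, 16 (47.1%) read at least 2-fold higher in pavement, where the share over all 8168 such genes was 8.31%. None read at least 2-fold higher in trichome, where the share over all genes was 1.19%. The median difference over the 39 genes was -0.62, beside 0.02 over all genes. Over the 14 genes with signal above background in both saps it was -2.42, beside -0.37 over the 1139 genes of the array that were, and 10 of the 14 (71.4%) passed 2-fold towards pavement, beside 31% of those 1139. None of the 14 passed it towards trichome, beside 2.02%. With background readings raised to the ceiling, 14 of the 16 still passed 2-fold, beside 6.64% of all genes higher in pavement and 0.526% higher in trichome.

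**Figure D1:**
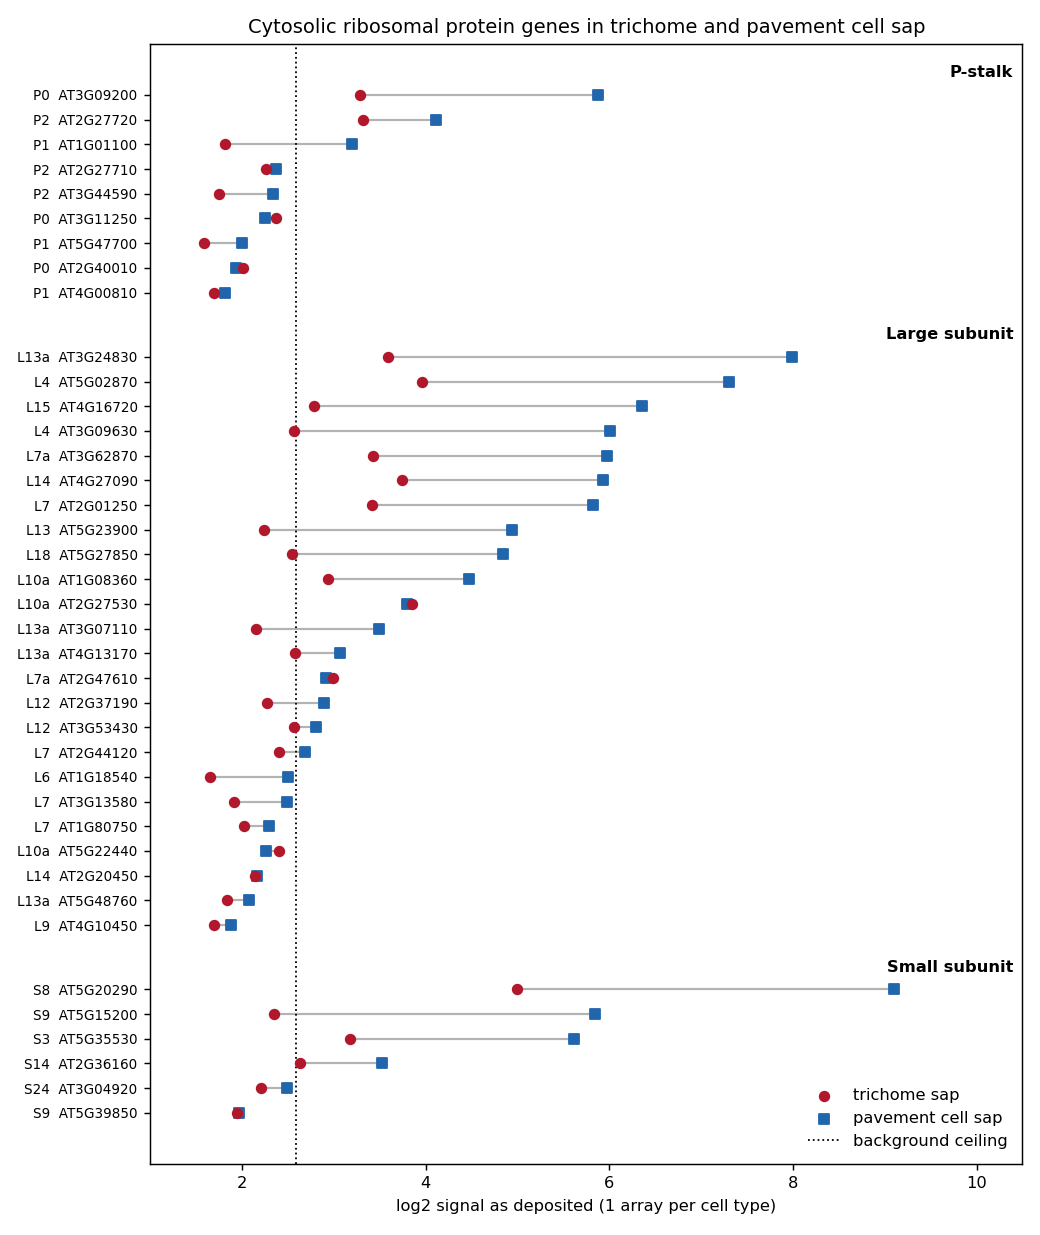
Each line is 1 gene, with its family and locus; the x axis is the log2 signal as deposited, red circles are the trichome array, blue squares the pavement array, and the dotted line is the background ceiling of 2.58. Genes are sorted by pavement signal within the P-stalk, large subunit and small subunit; the gap is widest for genes far above the ceiling in pavement, with a difference of -4.40 for AT3G24830 (L13a), and AT2G27530 (L10a) and AT2G47610 (L7a) are the 2 genes above the ceiling on both arrays with trichome at or to the right of pavement.

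The 9 genes of the P-stalk were all measured, and 2 of them passed 2-fold towards pavement. AT3G09200, a gene for P0, the scaffold protein of the stalk, read 3.29 in trichome and 5.88 in pavement, which is 6.03-fold higher in pavement (difference -2.59). Both arrays were above background for this gene, so that the fold is not a limit. The P2 gene AT2G27720 read 3.32 in trichome and 4.11 in pavement; its difference of -0.79 was under 2-fold and within the SD of 0.95 between probe sets. P2 pairs with P1 on the stalk. AT1G01100, a gene for P1, read 1.82 in trichome and 3.20 in pavement. Its trichome reading was background, so that the gene was at least 1.54-fold higher in pavement and a 2-fold difference is not shown. The other genes for P0 (AT2G40010 and AT3G11250), P1 (AT4G00810 and AT5G47700) and P2 (AT2G27710 and AT3G44590) were at background on both arrays. Each of P0, P1 and P2 thus had 1 of its 3 genes above background, in pavement for P1 and on both arrays for P0 and P2.

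In the large subunit, 24 of the 38 genes listed outside the stalk were measured, and 11 passed 2-fold towards pavement. The L13a gene AT3G24830 read 3.59 in trichome and 7.99 in pavement, so that the difference was -4.40 (21.1-fold), the widest among the 39. L13a lies on the solvent side of the large subunit. Both genes for L4, a protein that reaches into the tunnel through which the new protein leaves, were higher in pavement. AT5G02870 read 3.96 in trichome and 7.31 in pavement (10.2-fold). AT3G09630 read 2.56 in trichome, at background, and 6.01 in pavement (at least 10.8-fold). The difference of AT5G02870 was -3.34; that of AT3G09630 was -3.45 as deposited and is a limit, since its trichome reading was background.

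L15 is a protein buried in the rRNA of the large subunit. Its gene AT4G16720 read 2.78 in trichome and 6.36 in pavement, so that the difference was -3.58 (11.9-fold). The trichome signal was only just above the ceiling. AT3G62870, for L7a, read 3.42 in trichome and 5.98 in pavement (5.89-fold), and AT2G01250, for L7, 3.42 in trichome and 5.82 in pavement (5.30-fold). For L14, AT4G27090 read 3.75 in trichome and 5.93 in pavement (4.55-fold). These 3 genes had differences from -2.56 to -2.19, and both arrays were above background for each. The L13 gene AT5G23900 read 2.24 in trichome and 4.94 in pavement (at least 5.12-fold). AT5G27850, for L18, read 2.55 in trichome and 4.85 in pavement (at least 4.80-fold). Both were at background in trichome.

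The L10a family encodes the protein of the L1 stalk, which takes part in moving spent tRNA out of the ribosome. AT1G08360 read 2.93 in trichome and 4.47 in pavement, so that the difference was -1.54 (2.91-fold). PGY1 (AT2G27530), known as PIGGYBACK1 from its effect on leaf shape in mutants, read 3.85 in trichome and 3.80 in pavement, 0.05 apart. Its signal was thus well above background and nearly equal on the arrays. The other gene above background on both arrays with no lower signal in trichome was the L7a gene AT2G47610, at 2.99 in trichome and 2.91 in pavement, 0.08 apart at signals close to the ceiling. A further L10a gene, AT5G22440, stayed under the ceiling, at 2.40 in trichome and 2.27 in pavement.

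Among the remaining genes of the large subunit, those above background in pavement were at background in trichome. The L13a gene AT3G07110 read 2.15 in trichome and 3.50 in pavement, at least 1.88-fold higher in pavement, so that a 2-fold difference is not shown. Its paralog AT4G13170 read 2.58 in trichome and 3.06 in pavement (at least 1.40-fold). The L12 genes AT2G37190 and AT3G53430, for a protein at the base of the P-stalk, had signals of 2.27 and 2.57 in trichome, against 2.89 and 2.80 in pavement. The L7 gene AT2G44120 read 2.41 in trichome and 2.68 in pavement. None of these signals was more than 1 log2 unit above the ceiling. AT1G18540 (L6), AT1G80750 and AT3G13580 (L7), AT4G10450 (L9), AT5G48760 (L13a) and AT2G20450 (L14) were at background on both arrays.

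In the small subunit, 6 of the 13 listed genes were measured and 3 passed 2-fold towards pavement. AT5G20290, for S8, read 4.99 in trichome and 9.10 in pavement, so that the difference was -4.11 (17.3-fold). It held place 63 among the 13356 genes of the trichome array and place 51 on the pavement array, so its position among the genes was nearly the same on both. AT5G15200, a gene for S9, read 2.35 in trichome, at background, and 5.85 in pavement (at least 9.60-fold). S9 and S3 lie where the mRNA enters the small subunit. AT5G35530, for S3, read 3.17 in trichome and 5.62 in pavement (5.43-fold). AT2G36160, for S14, read 2.63 in trichome and 3.52 in pavement; its difference of -0.89 was under 2-fold. AT3G04920 (S24) and AT5G39850 (S9) were at background on both arrays. Over the 15 genes of all subunits at background on both arrays, signals ranged from 1.59 to 2.40 in trichome and from 1.81 to 2.50 in pavement, and differences from -0.85 to 0.13.

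Genes of the same family often differed in whether they passed 2-fold or were above background. Of 11 families with several measured genes, all measured genes passed 2-fold towards pavement in 1 (L4), some did in 8 and none in 2 (P2 and L12). The 8 include P1, where AT1G01100 alone passed and, with its trichome reading at background, a 2-fold difference is not shown. Apart from PGY1 and AT2G47610, the genes that did not pass in those 8 families were at background in trichome. Of these, only AT2G44120 and AT4G13170 were above background in pavement. The others were at background on both arrays, so no difference from their paralogs was measured. In the L7a and L10a families, genes above background on both arrays could be set side by side. In L7a, AT2G47610 and AT3G62870 had differences of 0.08 and -2.56, a gap of 2.64. In L10a, PGY1 (AT2G27530) and AT1G08360 had differences of 0.05 and -1.54, a gap of 1.59. Such a gap holds the scatter of 2 probe sets, and probe sets of a single gene scattered with an SD of 0.95. Whether the gaps exceed that scatter was not tested. A shift common to a whole array does not alter a gap between 2 genes, but a shift that grows with level does. When the trend with mean level was removed by lowess, a running fit over all genes, the gaps were 0.95 for L7a and 1.72 for L10a. The L4 genes, of which AT3G09630 was at background in trichome, had a gap of 0.11 as deposited and of 1.5 after lowess. L13a, L7 and L12 also had genes above background in pavement but not in trichome. Their gaps among genes above background in pavement were 3.91, 2.13 and 0.39 as deposited. After lowess these were 1.04, 0.31 and 0.44. Which family had the wider gap thus depended on the scale. Probe sets of near-identical genes can also bind each other's transcripts, although none of these was of a type annotated as shared.

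**Figure D2:**
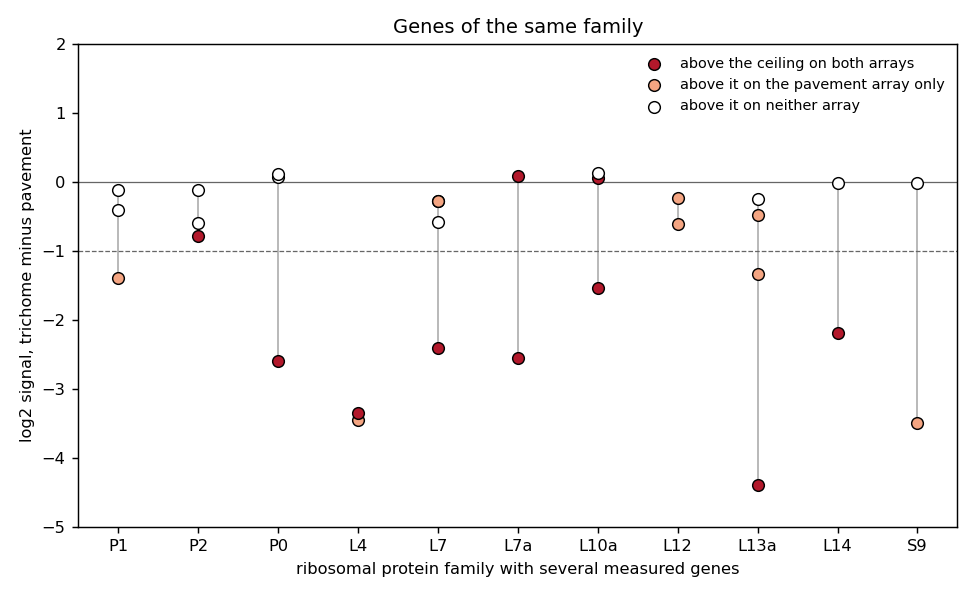
Points are single genes in the 11 families with several measured genes; the y axis is the log2 difference, trichome minus pavement, and fill shows whether the gene was above the background ceiling on both arrays, on the pavement array or on neither, with the dashed line at -1 for 2-fold. The L4 genes lie at -3.45, a limit against background, and -3.34, the L7a genes at -2.56 and 0.08, and the L10a genes above background at -1.54 and 0.05.

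The ribosomal protein genes were then read against genes of like level, because the difference between the arrays depended on level. From a mean log2 signal of 4 to 5, the 8 ribosomal protein genes had a median difference of -2.57, beside -1.59 over all 209 genes in that band, with quartiles of -2.83 and -0.66. All 8 passed 2-fold towards pavement, as did 65.6% of all genes in the band. From 3 to 4 the medians were -1.22 over 6 ribosomal protein genes and -0.55 over 606 genes. There 3 of the 6 passed 2-fold towards pavement, beside 36.3% of all genes in the band. From 5 to 6 the medians were -3.87 over 2 and -3.12 over 94 genes. Both of the 2 passed, as did 86.2% of all genes in the band. The gene for S8, AT5G20290, with a difference of -4.11, lay above the median of -4.59 over 55 genes from 6 to 8. It passed too, as did 94.5% of all genes in that band. The share over all genes thus rose with level. Of the 17 ribosomal protein genes with a mean of 3 or more, 15 had a difference below the median of their band. PGY1 and AT5G20290 did not. Among the 15, AT3G09630, AT5G23900, AT5G27850 and AT5G15200 were at background in trichome. They reached a mean of 3 only through pavement, so their place below the median is no support for the direction. AT3G09630 and AT5G15200 are among the 8 genes from 4 to 5. The bands of all genes hold such genes too.

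**Figure D3:**
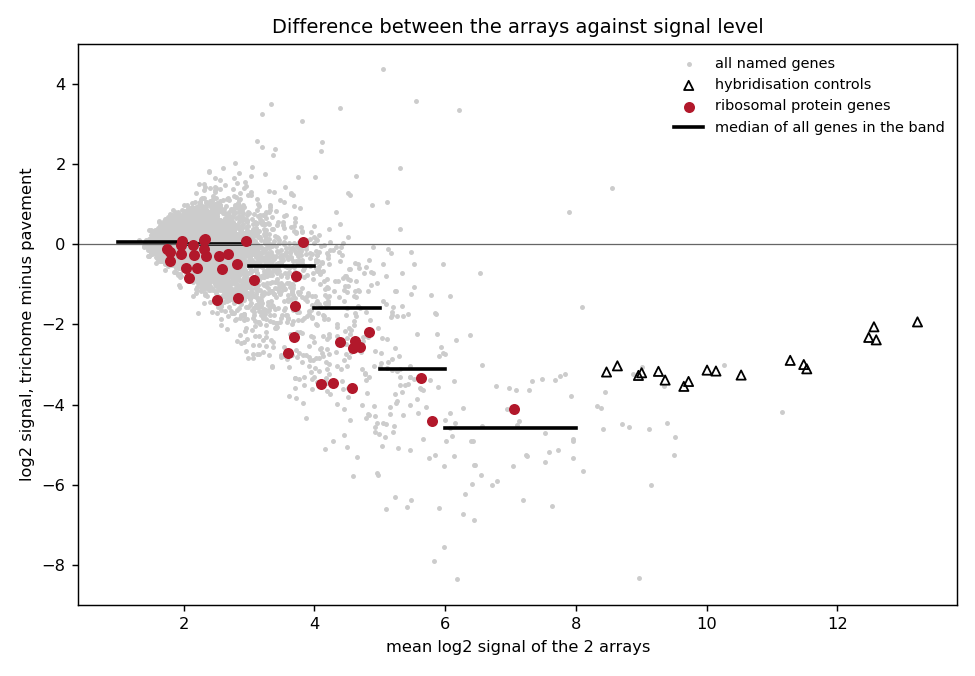
Each point is a gene, with the mean log2 signal of both arrays on the x axis and the log2 difference, trichome minus pavement, on the y axis; grey points are all named genes, red points the 39 ribosomal protein genes, open triangles the 18 hybridisation control probe sets, and black bars the median of all genes in a band of level. The bars descend to -4.59 with rising level, and 15 of the 17 red points with a mean of 3 or more lie below the bar of their band. Of these, AT3G09630, AT5G23900, AT5G27850 and AT5G15200 were at background in trichome and reached that mean only through pavement.

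The lowess correction and a centring on the hybridisation controls moved the counts. After lowess, 8 of the 34 ribosomal protein genes that reached the floor passed 2-fold towards pavement, beside 4.1% of all such genes. Towards trichome, 1 of the 34 (PGY1, at 1.11) passed, beside 3.29%. The 8 were AT1G01100, AT3G09630, AT5G23900, AT3G07110, AT3G24830, AT4G16720, AT5G27850 and AT5G15200, and 6 of them were at background in trichome. The median over the 39 genes was -0.39. Centred on the controls, which adds 3.15 to every difference, 1 of the 34 (AT3G24830, at -1.25) passed 2-fold towards pavement, beside 1.05% of all genes. Towards trichome, 21 of the 34 passed, a smaller share than the 96.5% over all genes. AT5G20290 (-0.96), AT4G16720 (-0.43), AT5G15200 (-0.35), AT3G09630 (-0.30) and AT5G02870 (-0.19) also stayed below 0. The lowest control reading was 6.88, a level that no ribosomal protein gene reached in trichome, so the shift of the controls was not measured where these genes lie.

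A comparison by position needs no scale, but has no meaning among background readings. Of the 14 genes above background on both arrays, 11 had a lower percentile in trichome than in pavement among all 13356 genes of the array. The exceptions were PGY1 (98.4 in trichome and 95.2 in pavement), AT2G47610 (94.3 in trichome and 89.7 in pavement) and the P2 gene AT2G27720 (96.5 in trichome and 96.1 in pavement). Among the 11, the gap was narrowest for AT5G20290, at 99.5 in trichome and 99.6 in pavement. It was widest for AT4G16720, at 91.6 in trichome and 98.8 in pavement. No matching share was computed for the 1139 array genes seen in both saps, so whether 11 of 14 is unusual was not tested. Across the 14 genes Pearson's r between the arrays was 0.67 and Spearman's rho 0.55. Over the 1139 genes of the array above background on both, these were 0.62 and 0.53. These coefficients describe genes on a shared pair of arrays, and genes are not independent replicates.

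Other genes of translation were described from lists drawn from general knowledge of the pathway. Of 162 further cytosolic ribosomal protein genes, 86 were measured. Of the 86, 37 (43%) were above background in trichome and 46 (53.5%) in pavement, beside 12.2% and 15.9% of all genes. Of the 71 that reached the floor, 27 (38%) passed 2-fold towards pavement, beside 8.31% of all genes. None of the 71 passed 2-fold towards trichome, beside 1.19% of all genes. The median difference over the 86 was -0.37. Those with the highest signals were AT1G52300 (L37), AT4G39200 (S25), AT3G60245 (L37a), AT3G09500 (L35), AT1G15930 (S12) and AT4G34670 (S3a). AT1G52300 read 6.53 in trichome and 11.1 in pavement (23.7-fold), AT4G39200 6.12 in trichome and 10.7 in pavement (24.2-fold), and AT3G60245 6.61 in trichome and 10.3 in pavement (12.9-fold). All of these 6 read lower in trichome as deposited. AT3G09500 was 20.8-fold, AT1G15930 11.4-fold and AT4G34670 8.23-fold higher in pavement. After lowess the differences of AT1G52300, AT4G39200 and AT3G60245 were 1.52, 1.10 and 2.05, so their direction depended on the scale. The mean levels of these genes lie above the last band, from 6 to 8, where few genes guide the fit. As deposited their differences were -4.57, -4.60 and -3.69, which stay below 0 with the 3.15 of the control centring added. The probe set for 25S rRNA, the RNA core of the large subunit, read 7.13 in trichome and 11.2 in pavement; its difference was -4.05.

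Nuclear genes for ribosomal proteins of the plastid were measured for 9 of 40, with 3 of 9 (33.3%) passing 2-fold towards pavement, beside 8.31% of all genes that reached the floor, and a median difference of -0.36. AT1G29070 read 2.08 in trichome and 4.90 in pavement (at least 4.98-fold), AT3G54210 2.44 in trichome and 4.08 in pavement (at least 2.83-fold), and AT2G43030 2.21 in trichome and 3.76 in pavement (at least 2.26-fold). All 3 were at background in trichome. AT3G13120 read 3.74 in trichome and 3.34 in pavement, and AT4G01310 1.87 in trichome and 2.68 in pavement.

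Of 49 translation factor genes, 12 were measured. Of the 11 that reached the floor 3 (27.3%) passed 2-fold towards pavement, beside 8.31% of all genes, and the median difference over the 12 was -0.48. AT5G54940, for initiation factor eIF1, which helps to find the start codon, read 6.03 in trichome and 9.82 in pavement (13.9-fold). AT5G19510, for a subunit of the factor that recharges eEF1A, read 2.63 in trichome and 6.96 in pavement (20.0-fold), and AT4G27130, also for eIF1, 3.26 in trichome and 5.04 in pavement (3.44-fold). The helicase gene EIF4A-2 (AT1G54270) read 3.47 in trichome and 3.88 in pavement. AT1G36730 (eIF5) and AT2G40290 (eIF2 alpha) were at background in trichome, at 2.42 and 1.92, and read 2.70 and 2.65 in pavement. After lowess AT5G54940 had a difference of 1.43 and AT5G19510 one of -2.22, so the direction of AT5G54940 depended on the scale. As deposited the difference of AT5G54940 was -3.79, which stays below 0 with the 3.15 of the control centring added.

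Genes for ribosome assembly were measured for 9 of 24, and 1 (11.1%) passed 2-fold towards pavement, near the 8.31% of all genes, with a median difference of -0.34. AT5G14520, for the Pescadillo protein of large subunit assembly, read 3.30 in trichome and 4.50 in pavement (2.31-fold). BOP1, its partner (AT2G40360), read 3.33 in trichome and 3.67 in pavement. The genes AT3G03920 and AT5G18180 encode GAR1, a protein of the particles that modify rRNA. AT3G03920 read 3.35 in trichome and 4.04 in pavement, and AT5G18180 read 2.88 in trichome and 2.03, at background, in pavement (at least 1.23-fold higher in trichome). AT2G40430 read 2.42 in trichome and 2.85 in pavement, and AT5G08180 2.59 in trichome and 2.51 in pavement. Of 6 genes of TOR signalling, the kinase pathway that controls ribosome production, RAPTOR1 alone was measured, at 2.29 on both arrays, which is background. These lists overlap in their differences with the ribosomal protein genes, and no test between lists was made.

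**Figure D4:**
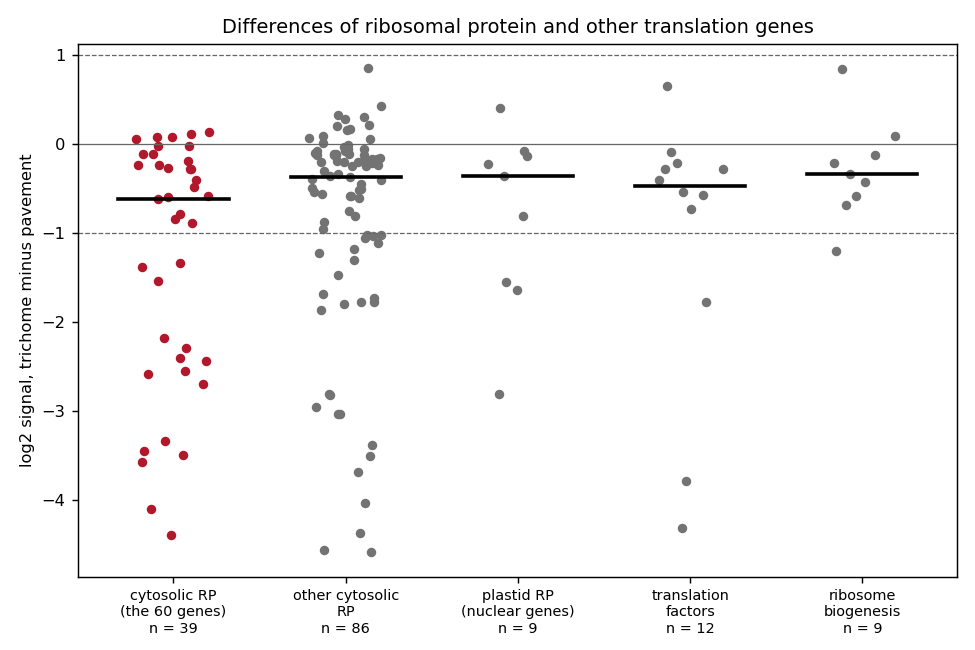
Points are single genes, the y axis is the log2 difference, trichome minus pavement, black bars are list medians and dashed lines mark 2-fold either way. The 39 ribosomal protein genes (red, median -0.62) and the 86 further cytosolic ribosomal protein genes (median -0.37) both extend below -4, and no point of any list lies at or above 1.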

How the data were processed

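Expression was measured on 1 array of trichome sap and 1 of pavement cell sap. Per the submitters' processing notes the authors used RMA, which gives 1 log2 signal for each probe set; its version and which arrays entered it are not stated there. That the deposited numbers are log2 was inferred from their range, and they hold no detection call. Labelling began at transcript 3′ ends. Of 22810 probe sets, 13513 named exactly 1 gene in the platform annotation of 2016, 503 named several and 8794 were not listed there; 13436 of the first were matched through gene identifiers to RefSeq TAIR10.1. No coordinates or sequences are given. Probe sets of a gene were averaged, with no further scaling (Python 3.11.15, pandas 2.3.3; lowess from statsmodels 0.14.6 over 0.3 of the genes). Every measured member was named, and of other lists the genes above the background ceiling, up to 6 by their higher signal. The members and lists were chosen with earlier results of these data known. The counting code was run on simulated data with a fixed shift and no trend with level. Those settings differ from these arrays, so that run checks the code and not the counts given here. With 1 array per group no p-value was computed. Alternatives changed the scale, background, floor, fold threshold and choice of probe sets. Promoter motifs, planned at the start, were not analysed.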

Additional observations from a re-analysis of the deposited data

Results flagged for a closer look

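A signal above background appeared on the 3 probe sets that name several genes and include ribosomal protein genes, which were left out of the counts because they cannot be assigned to 1 gene. The probe set shared by a pair of L6 genes read 2.30, at background, in trichome and 4.63 in pavement. That shared by a pair of S3 genes read 2.21, at background, in trichome and 3.29 in pavement. The probe set shared by an L9 gene and another gene read 2.70 in trichome and 2.20, at background, in pavement.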

How the results depend on the processing

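No paired analysis was possible because each group has 1 array and they share only the number 1; for the same reason no replicate could be left out. The count of 16 genes 2-fold or more higher in pavement was 1 when centred on the hybridisation controls and 8 after the lowess correction, and lay between 14 and 18 under the 7 other alternatives. The count of 0 in trichome was 21 when centred, 1 after lowess and 0 under the others. The median difference of -0.62 was 2.53 when centred and -2.24 over the 24 genes above the ceiling, all of which passed through pavement with 10 at background in trichome, so that this value is no support for the direction; it lay between -0.70 and -0.31 otherwise. With the next highest control reading of 2.21 as ceiling, 25 genes in place of 14 were above it in trichome and 32 in place of 24 in pavement. Of the 39 differences, 34 lay below 0 as deposited, 6 when centred and 32 after lowess. These counts include the 15 genes at background on both arrays, where the sign has no meaning. Of the 14 genes above the ceiling on both arrays, 12 lay below 0 as deposited, 4 when centred and 10 after lowess. The share of all genes below 0 was not computed on any of these scales. Among the 16 genes that passed 2-fold, centring turned the difference of 10, to 1.76 for AT1G01100, 0.56 for AT3G09200, 0.74 for AT2G01250, 0.59 for AT3G62870, 1.61 for AT1G08360, 0.45 for AT5G23900, 1.81 for AT3G07110, 0.96 for AT4G27090, 0.85 for AT5G27850 and 0.71 for AT5G35530, as adding 3.15 must for any difference above -3.15. Lowess turned that of AT5G20290 among the 16, to 0.25, and the smaller one of AT2G27720, to 0.16; the cause was not tested. The amounts of the controls are not recorded, so which scale holds was not tested.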
